A study of Mus musculus with 11 samples.

Results

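Heat shock protein and chaperone genes were examined in CD8+ Tregs, the Ly49+ regulatory subset of mouse CD8+ T cells. The genes were the protein-coding rows of the count table whose names start with Hsp (the a, b, d, e and h families and Hsp90) or Dnaj, together with Hsf1, Hsf2, Bag3 and Stip1. This gave 78 genes of 54532. The libraries were made from splenic CD8+CD44+Ly49+CD122+ cells sorted from wild-type mice, 3 of young males, 2 of middle-aged males, 3 of young females and 3 of middle-aged females. Young mice were 2 to 3 months and middle-aged mice, labelled old by the submitters, 10 to 12 months of age, while the study's account of the sequencing gives 3 and 12 months. All mice shared the wild-type genotype, no treatment is given, and no source says whether 1 library came from 1 mouse or from a pool, so p values measure only the spread between these libraries. The question was how the levels of these genes differ between young and middle-aged CD8+ Tregs.

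Molecular chaperones bind unfolded stretches of other proteins and help them fold, assemble or be degraded. Hsp70 proteins work in cycles of ATP hydrolysis that are started by J-domain proteins (the Dnaja, Dnajb and Dnajc genes) and reset by exchange factors such as Hsp110 and Bag3, while Hsp90 takes over clients handed on by Stip1, and the Hspd1 and Hspe1 chaperonin folds proteins inside mitochondria. The transcription factor HSF1 raises a subset of these genes in heat or protein stress, and a separate response raises the chaperones of the endoplasmic reticulum (ER).

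The total count per library ranged from 6135736 in young male 1 to 24394532 in young female 2, and young female 1 was the only other library under 10000000, at 8421396. Levels are given as CPM, counts scaled to the size of each library with TMM factors, and 3 counts correspond to 0.119 to 0.543 CPM by library, a limit that covers counting error only. The sorted identity was checked on 10 CD8 T cell and gate genes, all of which were tested. Cd8a was between 642 and 1015 CPM and Cd3e between 533 and 984 CPM over all libraries. Other genes of the 10 ranged more widely, with Cd3d at 712 to 2923 CPM and Cd3g at 750 to 2511 CPM. Ikzf2, which encodes Helios, was lowest in middle-aged female 2 (10.8 CPM) and middle-aged male 2 (19.8 CPM), against 20.8 to 69.2 CPM in the other libraries. Young male 1 was apart in other gate genes. Il2rb, which encodes CD122, was at 552 CPM there against 1293 to 2625 CPM in the other libraries. Cd44 was at 42.3 against 98.4 to 165.5 CPM. The Ly49 gene Klra6 went the other way, at 417 against 85.2 to 310.6 CPM. The summed level of the 10 genes was 6978 to 11918 CPM in young and 7093 to 10877 CPM in middle-aged libraries. Middle-aged female 2 stood apart in the myeloid list, whose 11 genes summed to 2688 CPM there against 46.5 to 353 CPM in the other libraries. The largest parts were Lyz2, S100a8 and S100a9, at 1058, 702 and 766 CPM there. C1qa, C1qb and C1qc were at 4.43, 8.44 and 10.9 CPM there, below 24.8, 37.9 and 38.2 CPM in young male 3. None of the 11 myeloid genes was at 0 in every library. Middle-aged female 2 was also apart in the plasma cell list, at 375 CPM against 98.7 to 164 CPM. It was highest in the B cell list, at 635 CPM against 136 to 575 CPM. With age, 4 of 8 NK cell genes and all 4 tested erythroid genes were lower in middle-aged libraries at an unadjusted p under 0.05, with sums of 975 to 1452 and 682 to 1315 CPM for NK cell genes and of 25.9 to 154 and 1.05 to 29.3 CPM for erythroid genes in young and middle-aged libraries. The part of these shifts in the chaperone values was not tested.

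Hspa8, the constitutive cytosolic Hsp70, was the most abundant of the 78 genes per length, at a mean of 1189 TPM over the 11 libraries (range 660 to 2157). TPM is the count divided by the deposited gene length and scaled to the same sum in every library. Hsp90ab1, the constitutive cytosolic Hsp90, followed at 979 TPM (572 to 1359), and Hspa5, the Hsp70 of the ER also known as BiP, at 372 TPM (144 to 640). The ranges of Hspa8 and Hsp90ab1 overlapped, so their order was not separated by the spread over libraries. These 3 genes held 41.9% of the summed mean TPM of the 78 genes. Stip1, the adaptor that links Hsp70 and Hsp90, followed at 272 TPM (109 to 441), and Dnajc8, a J-domain protein associated with splicing factors, was next at 261 TPM (198 to 423). Hspe1 was at 216 TPM and its partner Hspd1 at 180 TPM, with overlapping ranges.

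**Figure D1:**
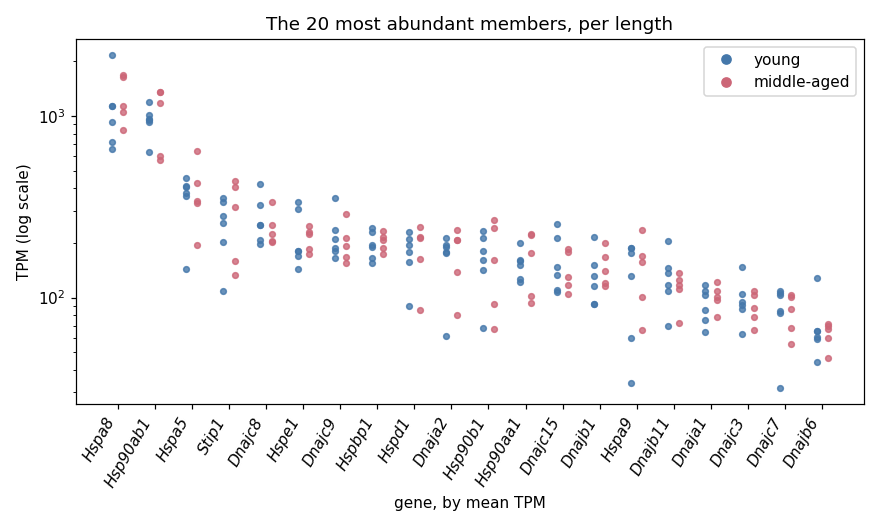
Level per length (TPM, log scale) of the 20 most abundant chaperone genes, 1 point for each of the 11 libraries, young at the left and middle-aged at the right of each gene. Hspa8 reached 2157 TPM in 1 young library, and the young and middle-aged points of every gene shown overlap.

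As a share of all TPM, the 78 genes took 0.595% ± 0.114 (SD, n = 6) in young and 0.620% ± 0.149 (SD, n = 5) in middle-aged libraries, with ranges of 0.422% to 0.765% and 0.422% to 0.792%. The Hsp70 and Hsp110 class took 0.178% ± 0.0625 in young and 0.198% ± 0.0611 in middle-aged libraries, and the Hsp90 class 0.127% ± 0.0260 and 0.134% ± 0.0534. The Dnajc class took 0.126% ± 0.0205 and 0.117% ± 0.0117. Small Hsp genes took 0.000392% ± 0.000200 and 0.000369% ± 0.000136. In each of these classes the age groups overlapped. In such bulk samples a change in the make-up of the cells and a change in RNA per cell cannot be told apart.

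With age, 0 of the 61 chaperone genes that could be tested passed an adjusted p of 0.05 in edgeR's quasi-likelihood test, where 0.0229% of the 13129 genes tested did. At an unadjusted p under 0.05 in that test 3 of the 61 (Dnaja4, Hspa1b and Dnajb14, 4.92%) were higher in middle-aged libraries, beside 2% of all genes tested, and 0 were lower, beside 0.99%. DESeq2's Wald test also gave 0 at an adjusted p of 0.05, and limma voom with quality weights gave 1, Dnaja4, beside 1.05% of all genes. The count of higher genes at an unadjusted p was 13 (beside 4.8%) in limma voom and 0 (beside 1.2%) without middle-aged male 2 and middle-aged female 2, the libraries highest for Hspa1b. In 0 of the 61 did the middle-aged libraries lie wholly above or wholly below the young ones, which 1.01% of all genes tested did upward and 0.297% downward. The median log2 fold change of the 61 (middle-aged over young) was 0.07, against 0.0028 over all genes tested, and 37 of the 61 (60.7%) were above 0, against 50.4%. A gene that passed the filter on low counts through 1 age group alone had to differ, so these counts describe the tested genes and not all 78.

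By class, 9 of the 10 tested Hsp70 and Hsp110 genes had a log2 fold change above 0, with a median of 0.23. All 4 Dnaja genes, cytosolic or mitochondrial J-domain partners of Hsp70, were above 0, with a median of 0.14. The 10 tested Dnajb genes split evenly, 5 above and 5 below 0, with a median of 0.04, and the 24 tested Dnajc genes split into 10 above and 14 below, with a median of -0.04. Of the 3 Hsp90 genes 2 were above 0, and of the 2 chaperonin genes 1. The 7 regulators and cochaperones had 6 above 0 and a median of 0.05.

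**Figure D2:**
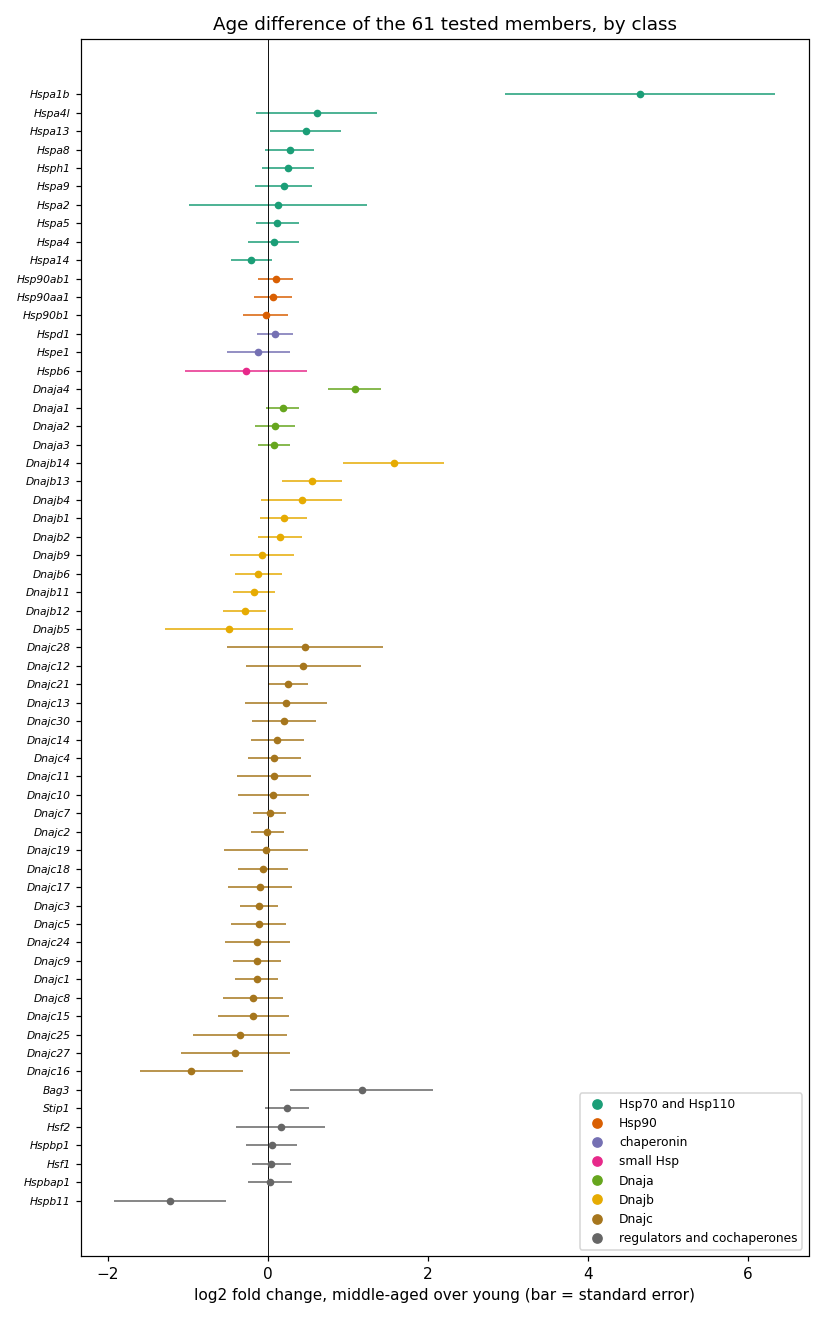
Log2 fold change, middle-aged over young, of the 61 tested chaperone genes, grouped by class (colour) and ordered by value within a class. Points are edgeR estimates and bars their standard errors. Hspa1b has both the largest estimate, 4.66, and the largest error, 1.69, while Dnaja4 lies at 1.09 with an error of 0.33.

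Hspa1a and Hspa1b, neighbouring genes that encode the strictly stress-inducible cytosolic Hsp70, were near 0 in most libraries and high in a pair of middle-aged ones. The counts table does not show how reads common to both genes were assigned, so single-gene values are uncertain and the sum is given too. The promoters are shown because they carry the heat shock element letters and because they differ at only 4 of 300 bases, 2 of them in these stretches of 200 bases. The stretches run from 220 to 21 bases before the RefSeq start (GRCm38.p6, minus strand, chr17:34972177-34972376 for Hspa1a and chr17:34959259-34959458 for Hspa1b), in no annotated exon, and capitals mark the GAANNTTC pair of heat shock units.
Hspa1a: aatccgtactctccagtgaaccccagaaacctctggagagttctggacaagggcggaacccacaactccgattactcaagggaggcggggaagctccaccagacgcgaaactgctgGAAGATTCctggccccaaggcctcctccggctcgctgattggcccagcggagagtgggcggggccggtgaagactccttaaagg
Hspa1b: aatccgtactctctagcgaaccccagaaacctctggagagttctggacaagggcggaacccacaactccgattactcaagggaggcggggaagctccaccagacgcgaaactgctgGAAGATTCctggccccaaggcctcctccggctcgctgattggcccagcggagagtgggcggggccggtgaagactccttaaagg

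Hspa1b (ENSMUSG00000090877, chr17:34956436-34959238, GRCm38) had 106 and 468 counts in middle-aged males 1 and 2 and 12, 695 and 6 in middle-aged females 1, 2 and 3. In young males 1, 2 and 3 it had 45, 6 and 24 counts, and in young females 0, 0 and 4. The level was thus 27.6 CPM in middle-aged male 2 and 29.0 CPM in middle-aged female 2, while the other 3 middle-aged libraries, at 0.285 to 5.04 CPM, lay within the young range of 0 to 8.14 CPM. The log2 fold change was 4.66 (SE 1.69, edgeR p = 0.0177, adjusted p = 1.00), and the exact permutation test on log2 CPM gave p = 0.0779. It was 1.69 without middle-aged male 2 and middle-aged female 2, where its unadjusted p was no longer under 0.05, and 2.39 without middle-aged female 2 alone. With all libraries kept and their replicate number added as a term (a replicate block), it was 2.51 (SE 2.10, edgeR unadjusted p = 0.262).

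Hspa1a (ENSMUSG00000091971, chr17:34969190-34972156) did not pass the filter on low counts. Middle-aged males 1 and 2 had 36 and 118 counts and middle-aged females 2, 279 and 3 counts, while young libraries had 4 counts or fewer. The same 2 libraries were highest, at 6.96 and 11.7 CPM, and middle-aged females 1 and 3 were within the young range of 0 to 0.191 CPM. The exact permutation p was 0.0130, 1 of 78 such p values, 1 for each gene, and not adjusted. Summed over both genes, the level was 16.6 ± 19.5 CPM (SD, n = 5) in middle-aged and 1.69 ± 3.28 CPM (SD, n = 6) in young libraries, with an exact permutation p of 0.0693, where the smallest possible p was 0.00216. Without middle-aged male 2 and female 2 the middle-aged mean was 2.64 CPM.

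The myeloid sum was 2688 CPM in middle-aged female 2 and 158 CPM in middle-aged male 2, with 46.5 to 305 CPM in young libraries. Hspa1a and Hspa1b together were at 40.7 and 34.6 CPM in the same libraries. Of the 11 myeloid genes 6 had a log2 fold change above 0 and 5 below, with a median of 0.10. At an unadjusted p under 0.05, 3 (Lyz2, S100a8 and S100a9) were higher in middle-aged libraries, beside 2% of all genes tested. At that p 0 were lower, beside 0.99%. C1qa, C1qb and C1qc had log2 fold changes of -1.13, -1.26 and -1.10. In middle-aged male 2, S100a8 was at 23.3 CPM and S100a9 at 20.7 CPM, above young ranges of 0 to 12.1 and 0 to 14.8 CPM. Lyz2, at 86.6 CPM there, was inside the young range of 18.7 to 97.5 CPM. The 15 immediate early genes, which respond within minutes to cell handling or stimulation, summed to 4904 CPM in young male 1, 3887 CPM in middle-aged female 2 and 2872 CPM in middle-aged male 2, with 1271 to 2932 CPM in the other libraries. The part of the myeloid and immediate early genes in the Hspa1a and Hspa1b values was not tested.

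**Figure D3:**
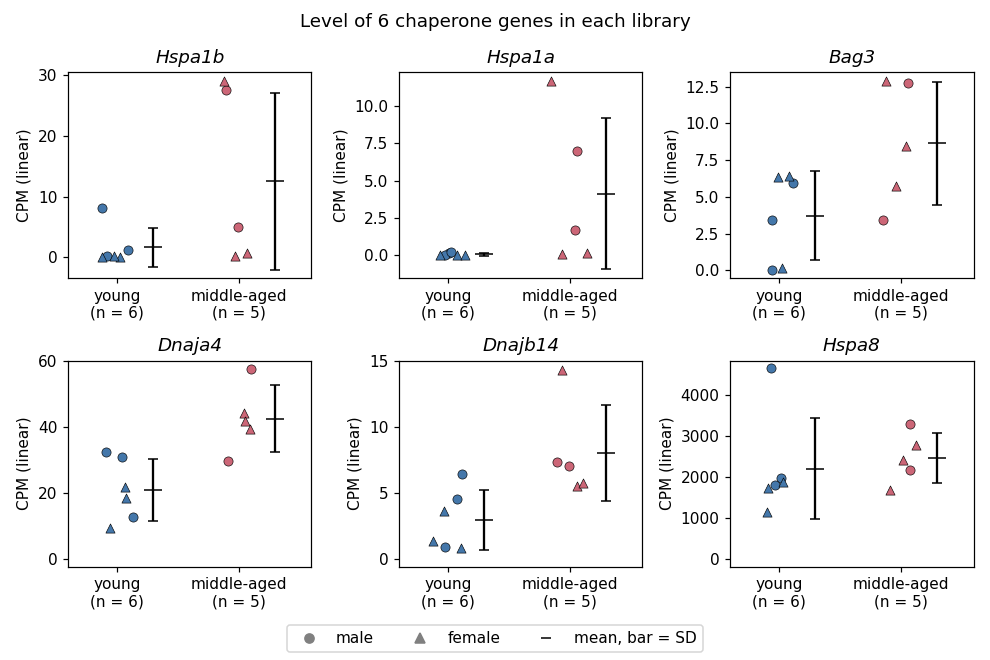
Level in CPM (linear axes, 1 panel per gene) of 6 chaperone genes in each library, young (n = 6) in blue and middle-aged (n = 5) in red, males as circles and females as triangles, with the mean and SD at the right of each group. Hspa1b and Hspa1a are high in 2 middle-aged libraries, one of each sex, and the Dnaja4 and Dnajb14 points overlap between the age groups only in part.

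Other heat-inducible genes were looked at in the same libraries. Of 15 genes listed as HSF1-inducible 13 were tested, and 12 of these had a log2 fold change above 0, with a median of 0.24 beside 0.0028 for all genes tested. Without middle-aged male 2 and middle-aged female 2, 6 of the 13 were above and 7 below 0, with a median of -0.12. This pair was picked as the highest for Hspa1b, so leaving it out lowers the estimate of any gene for which it is also high. In males alone 9 were above and 4 below, with a median of 0.19. In females alone, where 12 of the genes were in the fit, 10 were above and 2 below, with a median of 0.32. Among the 5 middle-aged libraries, middle-aged male 2 and middle-aged female 2 were the highest pair for 10 of the 13, or for 9 of 12 (75%) without Hspa1b, from which the pair was picked. They were the highest pair for 6 of the 48 other tested chaperone genes (12.5%) and for 7.02% of all genes tested, given as a description. The 10 heat-inducible genes were Hspa1b, Hspa8, Hsph1, Hsp90aa1, Hsp90ab1, Hspd1, Dnajb4, Bag3, Stip1 and Hspa4l. Over all 11 libraries middle-aged male 2 was the highest for 6 of the 13, middle-aged female 2 for 4, young male 1 for 2 and young female 1 for 1. The summed level of the 15 genes was 7961 CPM in young male 1, 7440 CPM in middle-aged male 2 and 6255 CPM in middle-aged female 2, and 3503 to 4912 CPM in the other 8 libraries. Hspa8 was the largest part of these sums, at 4653, 3282 and 2782 CPM in the 3 high libraries, and 1157 to 2401 CPM in the others. Young male 1 was also the lowest of the 11 libraries for 2 of the 13 genes, Bag3 and Hspa4l. The libraries with high sums were thus of both ages, but the sums mainly follow Hspa8.

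Hspa8 was at 4653 CPM in young male 1, and at 1157 to 1981 CPM in the other 5 young libraries. The middle-aged males had 2169 and 3282 CPM and the middle-aged females 2401, 2782 and 1675 CPM. The log2 fold change was 0.28 (SE 0.31, edgeR adjusted p = 1.00), and it was 0.53, with an unadjusted p under 0.05, without young male 1. Young male 1 was also the highest library for Dnajb1, the J-domain partner that HSF1 induces with Hsp70, at 346 CPM against 110.5 to 210.1 CPM in the other young libraries. Dnajb1 was at 232 and 296 CPM in the middle-aged males and 237, 206 and 127 CPM in the middle-aged females.

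Bag3, the exchange factor that directs Hsp70 clients to autophagy, was at 3.42 and 12.7 CPM in the middle-aged males and 5.77, 12.9 and 8.44 CPM in the middle-aged females. Young libraries had 0, 3.43 and 5.97 CPM in males and 0.139, 6.37 and 6.45 CPM in females. The 2 lowest values were from the 2 shallowest libraries, with 0 counts in young male 1 and 1 count in young female 1. The log2 fold change was 1.17 (SE 0.90, edgeR adjusted p = 1.00), and 0.62 over the 9 libraries with over 10000000 counts. With the replicate block it was 2.16 (edgeR unadjusted p = 0.0256, adjusted p = 0.492). Hspa4l, an Hsp110 relative, was likewise low in the 2 shallowest libraries, with 5 and 10 counts. Its log2 fold change was 0.61 (SE 0.76), and 0.10 over the 9 libraries. With the replicate block the Hspa4l value was 1.15 (edgeR unadjusted p = 0.0324, adjusted p = 0.521).

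The abundant cytosolic chaperones differed between ages by less than the spread between libraries. Hsp90ab1 was at 1030 and 1886 CPM in the middle-aged males and 958, 1569 and 1225 CPM in the middle-aged females, around a young range of 1139 to 1452 CPM. Its middle-aged mean was 1334 ± 389 CPM and its young mean 1257 ± 119 CPM, a log2 fold change of 0.10 (SE 0.22). Hsp90aa1, the inducible form, was at 283 ± 83.9 and 270 ± 51.2 CPM, with a log2 fold change of 0.07 (SE 0.24). Hsph1, an Hsp110 exchange factor, was at 114 ± 47.4 and 102 ± 32.8 CPM, and Stip1 at 275 ± 109 and 238 ± 49.97 CPM. The log2 fold changes of Hsp90ab1, Hsp90aa1, Hsph1 and Stip1 were -0.21, -0.27, -0.15 and -0.22 without middle-aged male 2 and middle-aged female 2. This pair was the highest of the middle-aged libraries for each of these genes, so the fall follows from leaving it out. Dnaja1, a general J-domain partner of Hspa8, was at 399 ± 74.3 and 353 ± 62.4 CPM (log2 fold change 0.19, SE 0.21).

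**Figure D4:**
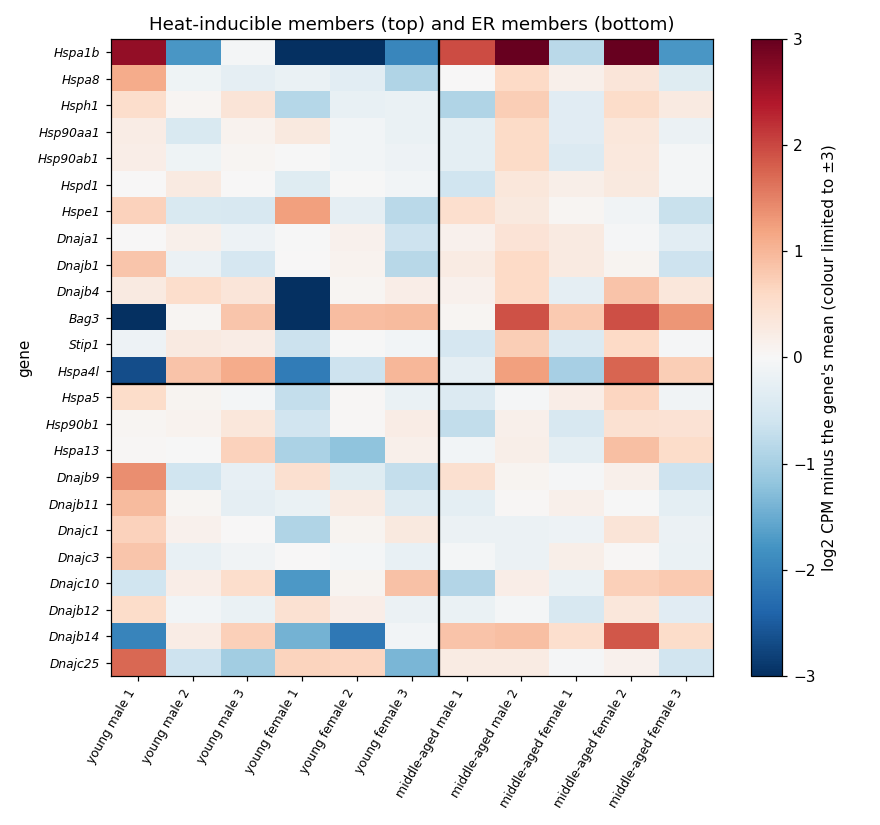
Log2 CPM of the 13 tested heat-inducible genes (top) and the 11 ER genes (bottom) in each library, as the difference from the gene's mean over the 11 libraries, with the colour limited to 3 in either direction. Hspa1b ranges most widely, and middle-aged male 2 and middle-aged female 2 are red for most of the upper block.

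Dnaja4, a J-domain partner of Hsp70 that heat and HSF1 also induce, had the smallest age p of the 61 genes. It is not on the list of 15 HSF1-inducible genes, so it was counted above among the 48 other tested chaperone genes. Its level was 29.7 and 57.7 CPM in middle-aged males 1 and 2 and 44.2, 41.8 and 39.3 CPM in middle-aged females 1, 2 and 3. In young males it was 12.8, 32.4 and 30.8 CPM and in young females 9.45, 18.4 and 21.8 CPM. Only middle-aged male 1 fell within the young range, below young males 2 and 3, and the 4 other middle-aged libraries were above every young one. The means were 42.5 ± 10.1 CPM (SD, n = 5) and 20.9 ± 9.31 CPM (SD, n = 6), and the log2 fold change was 1.09 (SE 0.33, edgeR p = 0.00701, adjusted p = 0.720, exact permutation p = 0.0130). In limma voom the adjusted p was 0.0371, and over all the alternatives tried the adjusted p ran from 0.0371 to 1.00. Its estimate was 0.77 over the 9 libraries with over 10000000 counts and 0.94 without middle-aged male 2 and middle-aged female 2, with an unadjusted p under 0.05 in the first fit only.

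The Dnaja4 promoter holds the letters GAANNTTC at 2 places, and the first, in no annotated exon, is shown as the element that the gene shares with Hspa1a and Hspa1b (GRCm38.p6, plus strand, chr9:54699458-54699487, capitals as above).
Dnaja4: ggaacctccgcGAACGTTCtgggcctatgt

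Dnajb14, a J-domain protein anchored in the ER membrane, was low throughout. It was at 7.04 and 7.38 CPM in the middle-aged males and 5.56, 14.3 and 5.74 CPM in the middle-aged females, and at 0.904, 4.51 and 6.40 CPM in the young males and 1.39, 0.796 and 3.63 CPM in the young females. Middle-aged female 2 stood highest, and young male 3 was the one young library above the lowest middle-aged ones. The log2 fold change was 1.57 (SE 0.63, edgeR p = 0.0287, adjusted p = 1.00, exact permutation p = 0.0238). It was 1.20 without middle-aged female 2, 1.40 without young female 1 and 1.30 without young female 2, and in each of these fits its unadjusted p was no longer under 0.05. With the replicate block it was 1.93 (edgeR unadjusted p = 0.0113, adjusted p = 0.395). The counts of Dnajb14 were 5, 96, 134, 10, 20 and 63 in the young libraries. The values of young male 1 and young female 1, the shallowest libraries, thus rest on 5 and 10 counts. The lowest level, in young female 2, rests on 20 counts in the deepest library, where 3 counts are 0.119 CPM.

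Other J-domain genes showed smaller or noisier differences. Dnajb13, a sperm flagellar J-domain protein, was at 24.7 ± 11.8 CPM in middle-aged and 16.9 ± 5.94 CPM in young libraries (log2 fold change 0.56, SE 0.37, edgeR adjusted p = 1.00). Dnajb4 was at 14.8 ± 4.27 and 11.7 ± 5.37 CPM, with 9 counts in young female 1. Dnaja2, another partner of Hspa8, was at 225 ± 52.8 and 216 ± 49.9 CPM. Dnajc16 was at 5.11 ± 2.20 CPM in middle-aged and 9.73 ± 5.67 CPM in young libraries, a log2 fold change of -0.96 (SE 0.64, edgeR adjusted p = 1.00). It was -1.40, with an unadjusted p under 0.05 (edgeR adjusted p = 0.380, with 0.294 to 1.00 over its alternatives), over the 9 deeper libraries, and young female 1, with 6 counts, held its lowest level, 0.834 CPM. Dnajc9, a histone chaperone that also recruits Hsp70, was at 220 ± 49.0 and 244 ± 100 CPM, and Dnajc8 at 296 ± 118 and 336 ± 166 CPM.

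The chaperones of the ER lay on both sides of 0. All 11 ER genes were tested, 4 with a log2 fold change above and 7 below 0 (median -0.07), and Dnajb14 alone had an unadjusted p under 0.05. Hspa5 was at 497 and 649 CPM in the middle-aged males and 763, 1045 and 619 CPM in the middle-aged females, and between 402 and 966 CPM in the young libraries. Its log2 fold change was 0.12 (SE 0.27). Hsp90b1, the Hsp90 of the ER, was at 282 ± 98.1 and 285 ± 56.0 CPM (log2 fold change -0.03, SE 0.28). Dnajb11, the ER partner of Hspa5, was at 164 ± 22.4 and 190 ± 75.3 CPM, and Dnajb12 at 20.3 ± 4.69 and 24.8 ± 5.67 CPM. Young male 1 was the highest of the 11 libraries for 6 of the 11 ER genes and middle-aged female 2 for 4, and middle-aged male 2 for 0. Middle-aged female 2 was the library with the highest plasma cell sum, and the part of that in the ER values was not tested.

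The letters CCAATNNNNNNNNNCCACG, the ER stress element, stand in 3 of the 63 genes with a promoter sequence (Hspa5, Hsp90b1 and Dnajc3, 4.76%, 3 of the 11 ER genes) and in 0.137% of all genes, and all 3 are shown with the element in capitals (GRCm38.p6, chr2:34772020-34772049 plus strand, chr10:86705513-86705676 minus strand and chr14:118937807-118937865 plus strand). The Hspa5 stretch lies in an annotated Hspa5 exon, and the other two in none.
Hspa5: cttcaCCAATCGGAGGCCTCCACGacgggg
Hsp90b1: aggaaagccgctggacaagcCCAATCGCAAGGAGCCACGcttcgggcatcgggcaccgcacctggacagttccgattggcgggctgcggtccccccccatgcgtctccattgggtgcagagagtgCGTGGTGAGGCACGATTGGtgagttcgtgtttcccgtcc
Dnajc3: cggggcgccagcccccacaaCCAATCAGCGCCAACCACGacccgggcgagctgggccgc

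These windows run from 250 bases before to 50 after a RefSeq start, and 15 of the 78 genes had none. Both strands were searched. The 3-unit heat shock element GAANNTTCNNGAA stood in 4 of the 63 genes (Dnajb6, Hspd1, Hspe1 and Hsph1, 6.35%) and in 0.662% of all genes. The pair GAANNTTC, which the 3-unit element contains, stood in 15 of the 63 (23.8%) and in 9.04% of all genes, and the pair TTCNNGAA, likewise contained in it, in 6 (9.52%) against 9.6%. A match is a description of letters and not a bound site. Hspd1 and Hspe1 are transcribed away from each other from 1 shared promoter, whose element is shown (GRCm38.p6, chr1:55088053-55088082, plus strand, in an annotated Hspd1 exon, heat shock units in capitals).
Hspe1: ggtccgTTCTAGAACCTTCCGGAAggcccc

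The chaperonin pair that shares this element differed in its spread over libraries. Hspd1 was at 214 ± 50.03 CPM in middle-aged and 202 ± 28.4 CPM in young libraries (log2 fold change 0.09, SE 0.22). Hspe1 was at 198 and 169 CPM in the middle-aged males and 145, 130 and 88.0 CPM in the middle-aged females, and its young libraries ran from 79.5 to 328 CPM, with young female 1 highest (log2 fold change -0.12, SE 0.39). Of the 9 mitochondrial genes 6 were above and 3 below 0, with a median of 0.08 and 0 at an unadjusted p under 0.05.

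Hsf1, the main heat shock transcription factor, was at 109 ± 7.41 CPM in middle-aged and 107 ± 32.1 CPM in young libraries, a log2 fold change of 0.05 (SE 0.24). Hsf2, a related factor, was at 1.93 ± 0.953 and 1.78 ± 1.29 CPM (log2 fold change 0.16, SE 0.55). Hspa14, a ribosome-associated Hsp70, was at 102 ± 23.1 and 115 ± 35.0 CPM. Hspb11, which despite its name is a component of intraflagellar transport, was at 5.55 ± 3.26 and 13.5 ± 14.9 CPM. Its highest values were 42.8 CPM in young female 1 and 15.4 CPM in young male 1, the shallowest libraries. The log2 fold change was -1.22 (SE 0.70) over all libraries, -0.36 without young female 1, -1.06 without young male 1 and -0.08 without both, over the 9 deeper ones. With the replicate block it was -1.25 (edgeR unadjusted p = 0.00916, adjusted p = 0.371).

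Small Hsp genes were scarcely detected. Hspb6 alone was tested, at 2.06 ± 0.730 CPM in middle-aged and 2.44 ± 1.48 CPM in young libraries. Hspb1, the inducible Hsp27, had 15 counts (2.71 CPM) in young male 1 and 26 counts (1.24 CPM) in middle-aged male 1, and at most 0.569 CPM elsewhere. In all, 17 of the 78 genes were not tested, of which 6 (Dnajc22, Dnajc5b, Dnajc5g, Hspb2, Hspb3 and Hspb8) had 0 counts in every library and 11 had some, Hspa1a and Hspb1 among them.

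Between the sexes 0 of the 61 genes passed an adjusted p of 0.05 in edgeR, beside 0.0381% of all genes tested. At an unadjusted p under 0.05, 0 were higher in females, beside 0.533%, and 1 was lower, beside 0.221%. That gene was Dnajb2, a cochaperone that binds ubiquitin, at a mean of 19.7 CPM in females and 31.2 CPM in males (log2 fold change -0.68, SE 0.28, edgeR adjusted p = 1.00). The test of whether the age difference differed between the sexes called 0 of the 61 at an adjusted p of 0.05 in edgeR, as of all genes (0%), and 0 at an unadjusted p under 0.05, beside 1.2%.

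Libraries differed in how far long genes were represented, and the share of chaperone genes that varied with this was near that of all genes. For each library the slope of the log2 CPM deviation on log2 gene length was taken over tested genes outside the 61, and it ran from -0.265 in young female 1 and -0.208 in young male 1 to 0.183 in middle-aged female 3. Tested as a term added to sex and age, this slope called 30 of the 61 genes at an adjusted p of 0.05 in edgeR (49.2%), beside 40.7% of all genes tested. Of these 14 (23%) were higher in libraries with a higher slope, beside 21.6%, and 16 (26.2%) were lower, beside 19.1%. The median deposited length was 5732 bases in the first set and 2552 bases in the second. The slope is itself defined by gene length, over genes outside the 61, so this direction largely follows from its definition. Dnajc19, Dnajc15 and Dnajc8, named after their values were seen, were lower by 0.55, 0.45 and 0.37 on the log2 scale per 0.1 of slope, and Hspa4l and Bag3 were higher by 0.78 and 0.89. Dnaja4 was higher by 0.27 (SE 0.07) per 0.1 of slope, and with the slope as a term its log2 fold change for age was 1.104 (edgeR adjusted p = 0.0650). In that fit 0 of the 61 genes passed an adjusted p of 0.05 for age, beside 0.343% of all genes tested, and at an unadjusted p under 0.05 4 genes (6.56%) were higher in middle-aged libraries, beside 5.08%, and 1 (1.64%) was lower, beside 2.21%.

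**Figure D5:**
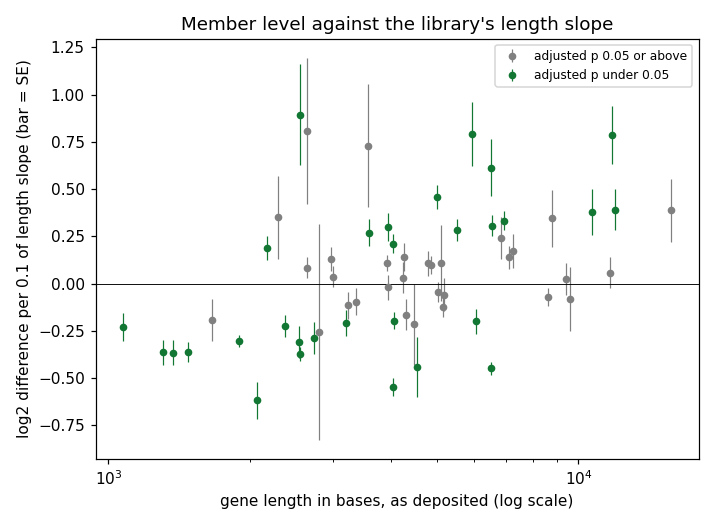
Log2 difference per 0.1 of a library's length slope (points, with standard errors) against the deposited gene length in bases (log scale) for the 61 tested chaperone genes. The 30 genes with an adjusted p under 0.05 are green, and those below 0 have a median length of 2552 bases against 5732 bases for those above. The slope is itself defined by gene length, so this direction largely follows from its definition.

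Genes that work with these chaperones but bear other names were also compared with age. Of 21 cochaperones such as Ahsa1, Cdc37 and Stub1 13 were above and 8 below 0 (median 0.01). Of 14 subunits of TRiC, the cytosolic chaperonin, and of its helper prefoldin 8 were above and 6 below (median 0.05). Of 21 genes of ER folding and the unfolded protein response 14 were above and 7 below (median 0.06), and of 10 mitochondrial proteases and chaperone partners 4 were above and 6 below (median -0.01). In these lists 0 genes had an unadjusted p under 0.05 in either direction, beside 2% and 0.99% of all genes tested.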

How the data were processed

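RNA of FACS-sorted CD8+ Tregs from 11 samples was made into SMARTer low-input libraries, and Novogene ran the analysis. The authors deposited raw counts per Ensembl gene (GRCm38 coordinates), with no normalization, and 0 columns were left unused. The submitters' processing notes name mm10 and kallisto, with no version or role. The counting rule for shared reads, the strandedness and the test are not given in the sources used here. Total counts were 6135736 to 24394532 per library.

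Counts were analysed in R 4.3.3 with edgeR 4.0.16 (TMM, filterByExpr with a minimum count of 10 and total of 15, glmQLFit with robust estimation, glmQLFTest) in a model of sex and age, with Benjamini-Hochberg adjustment over 13129 genes. The interaction was tested in a model with that term. Log2 CPM used a prior count of 2, and single genes were compared by 2-sided exact permutation over 462 splits. The pipeline was tested on simulated data. Alternatives used DESeq2 1.42.0, limma 3.58.1, other factors, filters and covariates, each sex alone, and each library left out. The length slope, the 9 deeper libraries, the fit without 2 libraries and the summed Hspa1a and Hspa1b counts were added after seeing the data. Promoters came from RefSeq (GRCm38.p6), matched by symbol.

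The genes and lists were chosen with earlier results of these data known. Named genes are Hsf1, Hsf2, Bag3, Stip1, the HSF1-inducible list, the 2 tested genes (1 for small Hsp) of highest level per length in each class other than regulators and cochaperones, the 5 with the smallest age p in each direction and the 2 with the smallest sex p; others named were chosen after their values were seen.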

Additional observations from a re-analysis of the deposited data

Results flagged for a closer look

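In 7 of 64 groups of libraries (32 named genes, 2 age groups each) 1 library lay far from the others of its age. The criterion was Dixon's, taken on linear CPM, and chance meets it in about 1 of 20 groups. The same library recurs over genes, so the 7 groups are not independent and cannot be set against that rate. Young male 1 was the highest young library for Hspa1b at 8.14 CPM (next 1.15), for Hspa8 at 4653 CPM (next 1981), for Hspb1 at 2.71 CPM (next 0.191) and for Dnajb11 at 333.5 CPM (next 203.6). This library also had the lowest total count, 6135736, and the highest immediate early gene sum, 4904 CPM, and their part in these values was not tested. Young female 1, the library with the second lowest total, was the lowest young library for Dnajb4 at 1.25 CPM (next 11.7) and the highest for Hspb11 at 42.8 CPM (next 15.4). Middle-aged female 2, the library with the highest myeloid sum, was the highest middle-aged library for Dnajb14 at 14.3 CPM (next 7.38).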

How the results depend on the processing

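The count of chaperone genes with an adjusted p under 0.05 for age was 0 under every alternative run except limma voom with quality weights, which gave 1 (Dnaja4), beside 1.05% of all genes. The count of genes higher in middle-aged libraries at an unadjusted p under 0.05, 3 as reported, was 1 with at least 10 counts in every library, 13 in limma voom (4.8% of all genes), 1 in males alone, 0 without middle-aged male 2 and middle-aged female 2 together, and 2 to 4 with each library left out. The count of lower genes, 0 as reported, was 1 in limma voom, 1 with the length slope as a term, 1 over the 9 libraries with over 10000000 counts, and 0 to 1 with each library left out, where middle-aged male 1 and young female 1 each gave 1. The median log2 fold change was -0.061 in males alone. The counts at an adjusted p under 0.05 for sex and the interaction were 0 under all alternatives run.

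With a replicate block the lower count was 2 (beside 3.18% of all genes), and 2 with the block within sex, the higher count was 4 (beside 5.69%) and 3, and 0 genes passed an adjusted p of 0.05. Same-numbered samples of different groups had deviations correlated at 0.025 to 0.558 (median 0.353), against a median of -0.186 for different numbers, and 9 of 11 libraries correlated best with one of their own number. The deviations are from each group's own mean and cancel out within it, so positive values for same numbers bring negative ones for different numbers. For the 2 middle-aged males the values are mirror images. The contrast is therefore in part arithmetic. The length slope was -0.265 to -0.0942 in number 1, 0.0143 to 0.0885 in number 2 and 0.158 to 0.183 in number 3. This is a hint from the data and not the design. The lowest pair of 1 sex was at 0.0287, so the numbers were not taken as pairing the samples.

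Of 30 tested named genes 10 kept their sign under every alternative run, and 62 of 740 values changed sign, none of them past an adjusted p of 0.05. In males alone the log2 fold change was -0.030 for Hsf1, -0.039 for Hspa8, -0.20 for Hsph1, -0.15 for Hspd1, 0.38 for Hspe1, -0.0071 for Dnajb4, -0.19 for Dnaja2 and -0.42 for Hspa5. In females alone it was -0.16 for Hsf2, -0.034 for Hsp90aa1, 0.058 for Dnajb11, 0.10 for Dnajc9 and 0.28 for Hsp90b1. Without middle-aged male 2 and middle-aged female 2 it was -0.38 for Hsf2, -0.22 for Stip1, -0.15 for Hsph1, -0.27 for Hsp90aa1, -0.21 for Hsp90ab1, -0.12 for Hspd1, -0.16 for Hspa4l, -0.080 for Dnaja2, 0.026 for Dnajc8 and -0.021 for Hspa5. Over the 9 deeper libraries it was -0.21 for Hsf1, 0.55 for Hspe1, -0.026 for Dnaja2, 0.34 for Dnajc8, 0.19 for Dnajc9 and 0.046 for Hspa14. In limma voom it was -0.20 for Hsf1, 0.55 for Hspe1, 0.073 for Dnajb11, 0.079 for Dnajc8 and 0.062 for Dnajc9. By library size alone it was -0.0048 for Hsf1, with the length slope as a term 0.15 for Hspe1, and with the replicate block within sex 0.0017 for Hsp90b1 and 0.24 for Hspb6. With each library left out in turn the range was -0.10 to 0.15 for Hsf1, -0.19 to 0.45 for Hsf2, -0.12 to 0.17 for Hsp90aa1, -0.070 to 0.22 for Hsp90ab1, -0.017 to 0.27 for Hspd1, -0.25 to 0.34 for Hspe1, -0.055 to 0.29 for Dnaja2, -0.27 to 0.022 for Dnajb11, -0.41 to 0.091 for Dnajc8, -0.27 to 0.075 for Dnajc9, -0.044 to 0.30 for Hspa5, -0.17 to 0.17 for Hsp90b1 and -0.018 to 0.28 for Dnajb2. The cause was not tested. Depth limits the low genes most, since 3 counts are 0.543 CPM in young male 1, and only 2 middle-aged males were measured.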
